A study of Mus musculus with 3 samples.

Results

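Amino acid transporters were taken as every probe set whose only gene symbol belonged to the carrier families Slc1, Slc3, Slc6, Slc7, Slc36, Slc38 or Slc43, with Slc38a4 left out. The rule used gene names alone, and the families were picked with earlier results of these data known. It gave 116 probe sets of 57 genes, out of 45037 probe sets that were not controls and 18193 named genes. All signals come from 3 arrays, each of pooled whole mouse embryos collected 8.5 days post coitum (8.5 dpc). The normal group was 1 array of 6 pooled C57Bl/6J litter mates. The mutant group was 2 arrays, of 8 and 6 pooled litter mates, called mutant array 1 and mutant array 2 here. The mutant embryos were Dnmt3l-/+ on a C57Bl/6J background: their sire was wildtype and their dam Dnmt3l-/-. The study's title calls them maternal methylation-deficient, and Dnmt3l encodes a cofactor of the DNA methyltransferases of the oocyte. Every pool held mixed sexes, and the normal group had no replicate. Every ratio below is set against that same normal array, so a departure of that pool from other normal embryos would enter all of them.

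Amino acids cross cell membranes mainly through carriers. Slc1 and Slc38 proteins draw neutral or acidic amino acids into cells with the sodium gradient, Slc36 proteins use protons, and many Slc6 proteins carry neurotransmitters, osmolytes or neutral amino acids. Most Slc7 proteins are light chains that reach the cell surface only when bound to a heavy chain, Slc3a1 or Slc3a2. In absorptive epithelia such as kidney tubule and gut, Slc7a9 with Slc3a1 takes up cystine and cationic amino acids at the luminal face, and Slc7a7 and Slc7a8 with Slc3a2 exchange amino acids at the basolateral face. In the mouse conceptus at this stage the visceral endoderm of the yolk sac is an absorptive epithelium that feeds the embryo before the placenta takes over.

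The 3 genes that passed the test over the 27022 probe sets kept by a filter on brightness were Slc7a9, Slc7a8 and Slc6a4. The 250 bases before their most upstream RefSeq start (build GRCm38.p6) are printed because the mutation under study affects a DNA methylation cofactor, with each CpG, the dinucleotide that mammalian DNA methyltransferases act on, in capitals. Methylation was not measured on these arrays.

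Slc7a9, chr7:35448842-35449091, plus strand: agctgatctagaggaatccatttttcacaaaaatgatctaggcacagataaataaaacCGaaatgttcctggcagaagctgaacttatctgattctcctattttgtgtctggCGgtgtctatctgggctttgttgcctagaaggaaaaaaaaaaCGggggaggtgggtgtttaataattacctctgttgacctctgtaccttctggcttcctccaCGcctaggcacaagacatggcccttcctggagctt
Slc7a8, chr14:54781887-54782136, minus strand: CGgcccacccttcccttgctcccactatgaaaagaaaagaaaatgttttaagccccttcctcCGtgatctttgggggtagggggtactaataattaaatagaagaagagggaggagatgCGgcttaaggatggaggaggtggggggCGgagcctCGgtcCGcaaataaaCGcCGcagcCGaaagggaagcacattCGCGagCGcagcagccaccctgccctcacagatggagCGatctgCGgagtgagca
Slc6a4, chr11:76998347-76998596, plus strand: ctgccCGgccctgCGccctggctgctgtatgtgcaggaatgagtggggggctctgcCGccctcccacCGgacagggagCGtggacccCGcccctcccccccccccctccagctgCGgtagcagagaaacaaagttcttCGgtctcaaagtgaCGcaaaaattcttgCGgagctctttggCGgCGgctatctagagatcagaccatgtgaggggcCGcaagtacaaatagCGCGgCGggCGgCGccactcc

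These windows differed in CpG content. The Slc7a9 window held 4 CpG, the Slc7a8 window 14 and the Slc6a4 window 18. The RefSeq promoter table held 40 of the 57 genes, whose most upstream windows had a median of 12.5 CpG (1 to 30), against a median of 6 over 27026 windows of all genes. The 7 genes in that table that were at least 2-fold higher in both mutant arrays had 4 to 21 CpG (median 14), and the 33 others had 1 to 30 (median 11). The windows of both sets overlapped over most of that range. The core of the amino acid response element that C/EBP and ATF factors bind, TGATGNAA on either strand, was in 4 of 59 member windows (6.78%) and in 3.45% of 32851 windows of the same length. It was found in the windows of Slc7a11 (2 matches), Slc6a21 and 2 overlapping windows of Slc7a7, and in none of the 3 printed above.

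Across the whole set, a few carriers read far higher in the mutants while most members had small ratios. Limma called 3 of the 65 member probe sets that were bright enough to test higher and 0 lower, against 0.548% of all tested probe sets called higher and 0.0296% called lower. At an unadjusted limma p under 0.05, 16 of those 65 members were higher and 1 was lower, where 6.7% and 6.86% of all tested probe sets were. Slc6a4 is in both counts of higher members, though the filter kept it through its mutant signals alone, so it had to differ. By size alone, 12 of the 116 member probe sets were at least 2-fold higher in both mutant arrays, where 2.37% of all probe sets were, and 1 lower by as much, where 1.83% were. By direction alone, 56 were higher in both mutant arrays and 40 lower in both, beside 32.6% and 39.4% of all probe sets. The median log2 ratio of all 116 was 0.07 (0.07 in mutant array 1 and 0.09 in mutant array 2), and it was -0.04 over all probe sets. Ratios are differences of log2(signal + 31.92), which understate the change of dim probe sets, and 51 of the 116 were too dim for the test. All 3 calls were lost when dim probe sets were kept in the fit (lowest adjusted p among them 0.0971 in limma) and when the variance was not fitted to signal (0.114 in limma).

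**Figure D1:**
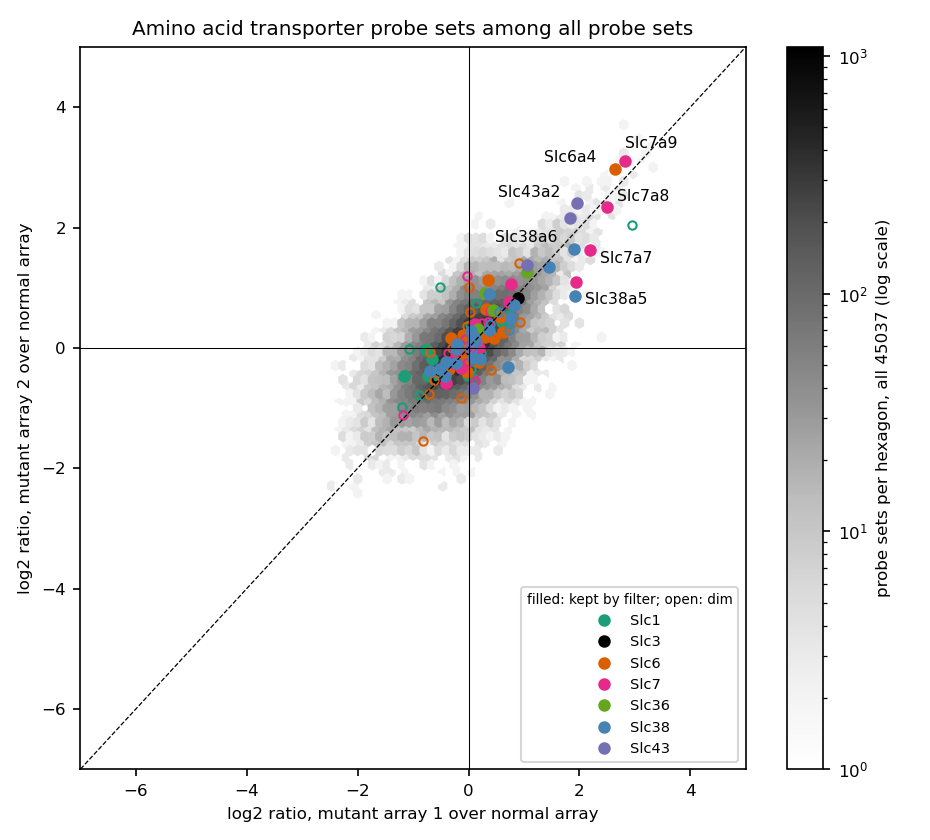
Log2 ratio of mutant array 1 over the normal array (x axis) against that of mutant array 2 over the same normal array (y axis), with all 45037 probe sets as grey hexagons and the 116 amino acid transporter probe sets as coloured points by family, filled where the filter kept them. Slc7a9, Slc6a4 and Slc7a8 lie farthest to the upper right among the filled points, at or above 2.34 on both axes; both axes share the normal array.

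The light chains split into members far above the normal array and members near it. Slc7a9 read 240.1 in normal embryos, and the mutant arrays gave 1890.1 and 2309.9. Both mutant arrays were far above the normal array and closer to each other than to it. Slc7a9 rose by a log2 ratio of 2.96 (SE 0.25, limma adjusted p = 0.0187), from 240.1 to 2100.0 ± 296.8 (SD, n = 2). Slc7a8, a carrier of neutral amino acids, read 137 in normal embryos against 922 and 825, and the mutant arrays lay close together. It rose by a log2 ratio of 2.42 (SE 0.26, limma adjusted p = 0.0365). Slc7a7, which exchanges cationic for neutral amino acids, read 323 against 1585 and 1064. Both mutant arrays again exceeded the normal array, but it did not pass (log2 ratio 1.90, SE 0.31, limma adjusted p = 0.0932). Its other probe set read 209 against 898 and 481, a log2 ratio of 1.52 (SE 0.41). Both Slc7a7 probe sets therefore pointed the same way, with mutant array 1 the higher.

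The other light chains did not share these sizes. Slc7a5, the main exchanger of large neutral amino acids in growing cells, read 1571 in normal embryos, and the mutant arrays gave 1665 and 1626. The values lay within a narrow band, with a log2 ratio of 0.07 (SE 0.20). Slc7a6, a close relative of Slc7a7, read 1414 against 1175 and 1181 (log2 ratio -0.26, SE 0.21), and its second probe set gave -0.49 (SE 0.23). The sign was the same in both probe sets and neither passed. Slc7a10, an exchanger of small neutral amino acids, read 146 against 130 and 109 (-0.23, SE 0.34). Slc7a11, the cystine and glutamate exchanger, was at or below 27.3 on all 3 arrays by both of its probe sets, under the pseudocount of 31.92. Slc7a12, Slc7a13 and Slc7a15 were too dim to test, and of their probe sets only a second one of Slc7a13 reached 99.1, on mutant array 2. Over all 14 light chain probe sets the median log2 ratio was -0.04. Of the 14, 6 were higher in both mutant arrays and 7 lower in both, where 32.6% and 39.4% of all probe sets were.

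The heavy chains differed from each other. Slc3a2, the partner of Slc7a5 to Slc7a8, read 2508 in normal embryos, and the mutant arrays gave 4694 and 4458. The mutant arrays were close together and both were above the normal array, with a log2 ratio of 0.86 (SE 0.17) that did not pass (limma adjusted p = 0.141). Slc3a1, the partner of Slc7a9, read 89.0 in normal embryos, and the mutant arrays gave 48.6 and 53.2 and was too dim to test. Its 1 probe set was thus lower in both mutant arrays (log2 ratio -0.55) while that of Slc7a9 was higher, and how well this probe set measures Slc3a1 was not tested. Levels of different probe sets are not compared here, since each probe set has its own brightness.

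**Figure D2:**
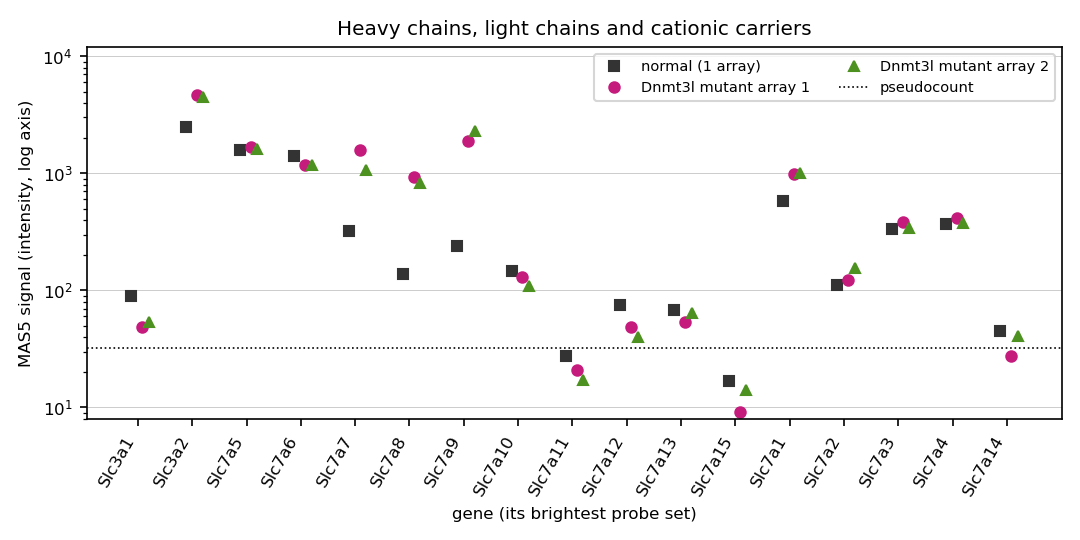
MAS5 signal (log axis) of the brightest probe set of each heavy chain, light chain and cationic carrier gene on the normal array and both mutant arrays, with a dotted line at the pseudocount of 31.92. Slc7a7, Slc7a8 and Slc7a9 have both mutant points well above the normal point, while the points of Slc7a5 nearly coincide at 1571 to 1665.

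The cationic carriers of the Slc7 family need no heavy chain. Slc7a1, the widely expressed arginine and lysine carrier, read 580 in normal embryos, and the mutant arrays gave 983 and 1000.4. The mutant arrays agreed closely, and the log2 ratio of 0.74 (SE 0.23) did not pass (limma adjusted p = 0.274). Its second bright probe set gave 0.91 (SE 0.26), and another, a dim one, -0.14. Slc7a3 (337 against 387 and 338) and Slc7a4 (370 against 418 and 378) read nearly alike in all pools. Slc7a2 was dim, and 1 of its 4 probe sets, at 48.1 against 3.37 and 4.88, was the single member probe set lower by 2-fold or more in both mutants, while its brightest read 111 against 123 and 156. That count of 1 depended on the pseudocount and was 0 when it was doubled and 7 with a pseudocount of 1. Slc7a14 stayed below 45.0 on all arrays.

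In the Slc6 family the serotonin transporter stood apart. Slc6a4, which takes up serotonin and is no amino acid carrier in the strict sense, read 18.2 in normal embryos, and the mutant arrays gave 282 and 364. The normal signal lay under the pseudocount, and the mutant signals lay well above it. It rose by a log2 ratio of 2.81 (SE 0.34, limma adjusted p = 0.0493), a call just under the threshold. The size was 2.23 with a doubled pseudocount, when it no longer passed (limma adjusted p = 0.0586), and 3.30 with a pseudocount of 15.96. The call was also lost under quantile normalization (limma adjusted p = 0.0511), and the filter removed the probe set with a pseudocount of 1 or at the stricter setting. The filter kept it through its mutant signals alone, and such a probe set had to differ.

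The other Slc6 members showed no such step. The other monoamine carriers were the norepinephrine transporter gene Slc6a2 (377 against 354 and 325, log2 ratio -0.14, SE 0.27) and the dopamine transporter gene Slc6a3 (81.4 against 71.1 and 89.1). The sign for Slc6a2 turned to 0.19 with the mean of its 4 probe sets, 1 of which, a dim one, read 29.6 against 83.5 and 132. Slc6a6, the taurine carrier, read 1477 against 1368 and 1718, so the mutant arrays lay on both sides of the normal one. Its second probe set read 551 against 708 and 1244, and the 4 probe sets of the gene ranged from -1.18 to 0.74. Slc6a8, the creatine carrier, read 455 against 576 and 733 (log2 ratio 0.49, SE 0.28). Slc6a9, a glycine carrier, read 499.6 against 791 and 608 (0.45, SE 0.28). Both probe sets of Slc6a8 and of Slc6a9 were higher in both mutant arrays, and none passed. Slc6a19, the neutral amino acid carrier of gut and kidney brush borders, read 269 against 309 and 225 (-0.02, SE 0.32), with the mutant arrays on both sides of the normal array. Over the 32 Slc6 probe sets, 12 were higher and 12 lower in both mutant arrays, where 32.6% and 39.4% of all probe sets were. Their median of -0.02 turned positive under median centring (0.06), quantile normalization (0.03) and cyclic loess (0.05).

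The Slc43 family, carriers that work without a heavy chain, was higher for 2 of its 3 genes. Slc43a2, which carries large neutral amino acids, read 105 in normal embryos, and the mutant arrays gave 502 and 696. The mutant arrays were both well above the normal one, and the log2 ratio of 2.19 (SE 0.32) did not pass (limma adjusted p = 0.0713). A second probe set read 102 against 442 and 561 (1.99, SE 0.30), and the last read from 1.49 to 1.55 on all arrays and gave no information. Slc43a3, a carrier of nucleobases, read 202 against 455 and 577, a log2 ratio of 1.22 (SE 0.29, limma adjusted p = 0.190). Slc43a1, a second large neutral amino acid carrier, read 679 against 716 and 416. Its mutant arrays fell on both sides of the normal array, with a log2 ratio of -0.30 (SE 0.37).

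All 4 Slc36 genes were higher in both mutant arrays under every scaling tried, and none passed. Of all named genes, 36% were higher in both mutant arrays. Slc36a1, a proton-coupled carrier of small neutral amino acids found on lysosomes and brush borders, read 202 in normal embryos, and the mutant arrays gave 453 and 529. The mutant arrays were alike and more than 2-fold above the normal array (log2 ratio 1.15, SE 0.28, limma adjusted p = 0.193). Slc36a4 read 119 against 154 and 250.4 (0.60, SE 0.38), with mutant array 2 the higher. Slc36a3 (0.24, SE 0.30) and Slc36a2 (0.54, SE 0.36) moved less in size, and Slc36a2 was dim, at 70.4 on the normal array. That normal signal alone lay under the filter's cutoff, so Slc36a2 was kept through its mutant signals, which had to be the higher.

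The Slc38 family held members of both directions. Slc38a1 and Slc38a2, which concentrate glutamine and other neutral amino acids in growing cells, were among the brightest probe sets of the set. Slc38a1 read 3438 in normal embryos, and the mutant arrays gave 2404 and 2704, a log2 ratio of -0.43 (SE 0.19, limma adjusted p = 0.419), and its second probe set gave -0.54 (SE 0.22). Slc38a2 read 5371 against 4044 and 4578 (-0.32, SE 0.18), and its other probe sets gave -0.45 (SE 0.23) and -0.13 (SE 0.34). The mutant arrays were below the normal array for both genes by less than 2-fold, and neither passed. Slc38a6 went the other way, with 421 in normal embryos, and the mutant arrays gave 1656 and 1388. Its log2 ratio was 1.77 (SE 0.24) and just missed the threshold (limma adjusted p = 0.0610), while a dim second probe set gave 0.39 and the mean of both 1.08. Slc38a5, a glutamine carrier that also runs outward, read 138 against 612 and 279. The mutant arrays differed from each other more than 2-fold, so the log2 ratio of 1.39 carried an SE of 0.48 (limma adjusted p = 0.310). Slc38a3, a relative of Slc38a5, read 271 against 228 and 223 (-0.23, SE 0.29), and its dim second probe set had the opposite sign (0.58).

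Probe sets of 1 gene disagreed for the lysosomal member. Slc38a9, which senses arginine in the lysosome for the growth kinase complex mTORC1, had 7 probe sets. Its brightest read 390 against 405 and 477 (log2 ratio 0.16, SE 0.27), and another read 132 against 415 and 385 (1.40, SE 0.28, limma adjusted p = 0.141). The remaining 5 ranged from -0.08 to 0.63. Slc38a10 also had 7 probe sets, and its brightest read 2032 against 2190 and 2309.6 (0.14, SE 0.19) with the others between -0.04 and 0.76. Slc38a7, a lysosomal glutamine carrier with 1 probe set, read 585 against 760 and 725 (0.33, SE 0.24). Which transcript each probe set detects was not analysed here. Median centring of the arrays, which gave 6 called member probe sets in place of 3, added Slc38a6 (limma adjusted p = 0.0398) and 2 probe sets of Slc43a2 (limma adjusted p = 0.0367 and 0.0409). It also raised the limma calls over all tested probe sets, from 148 to 263 higher and from 8 to 24 lower.

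**Figure D3:**
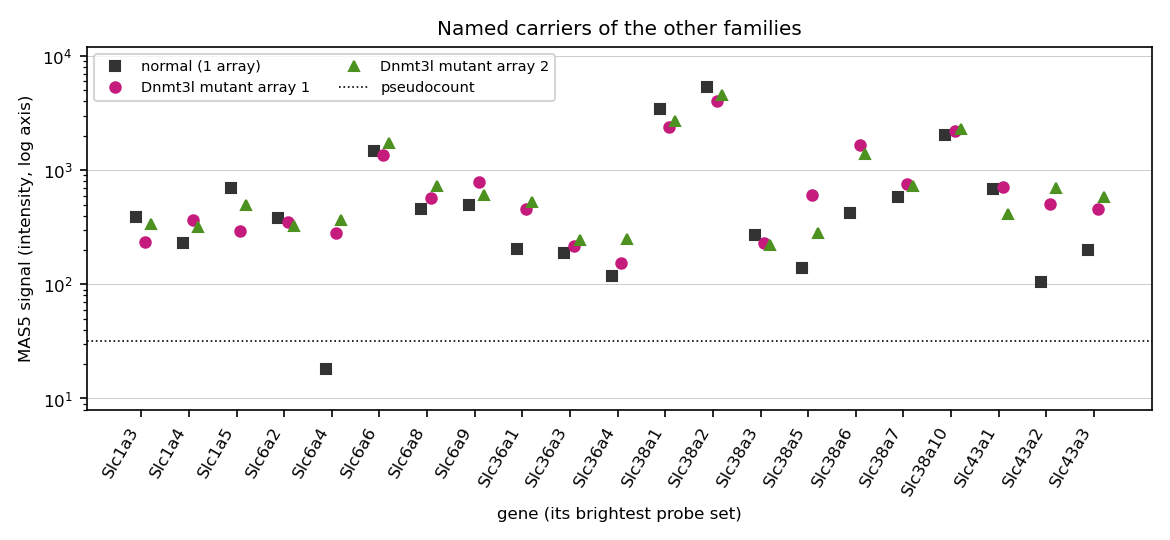
MAS5 signal (log axis) of the brightest probe set of 21 carriers outside the Slc3 and Slc7 families, on the normal array and both mutant arrays. Slc6a4 starts at 18.2, below the dotted pseudocount line, and Slc6a4, Slc36a1, Slc38a5, Slc38a6, Slc43a2 and Slc43a3 have both mutant points at least 2-fold above the normal point on this scale, which adds no pseudocount.

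In the Slc1 family no gene passed. Slc1a5, the sodium-dependent glutamine exchanger, read 694 in normal embryos, and the mutant arrays gave 293 and 493. Both were below the normal array, mutant array 1 the further, with a log2 ratio of -0.81 (SE 0.36, limma adjusted p = 0.412), and its second probe set gave -0.60 (SE 0.37). Slc1a4, a close relative that carries alanine, serine and cysteine, read 229 against 365 and 321 (0.52, SE 0.28). Its second probe set gave 0.63 (SE 0.29), and the last, too dim to test, read 8.77 against 284 and 136. All 3 probe sets of Slc1a4 were thus higher in both mutant arrays, and both of Slc1a5 lower. Among the glutamate carriers, Slc1a3 read 390 against 236 and 341 (-0.42, SE 0.33) by the brightest of its 6 probe sets. That probe set is of a type (x_at) that can also bind other transcripts. The others bright enough to test gave -0.22 and -0.39, and those too dim to test differed in sign. Slc1a2 read 154 against 88.3 and 104 (-0.54, SE 0.35) by its brightest probe set. Its 5 probe sets ranged from -1.09 to 0.55, and the others were too dim to test. Slc1a1, Slc1a6 and Slc1a7 were also too dim to test.

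No probe set of 18 of the 57 genes was bright enough for the test, and 18 of the 116 probe sets were below the pseudocount on every array. They included Slc6a5 and Slc6a11, the glycine and gamma-aminobutyric acid carriers of nervous tissue. Taking the brightest probe set of each gene, 8 of 57 genes were at least 2-fold higher in both mutant arrays and 0 lower by as much, where 3.11% and 0.819% of all named genes were. The 8 were Slc6a4, Slc7a7, Slc7a8, Slc7a9, Slc36a1, Slc38a6, Slc43a2 and Slc43a3. Slc36a1 and Slc43a3 were nearest the limit, with log2 ratios of 1.05 and 1.06 in the less changed mutant array. The count by size depended on the pseudocount: the 12 probe sets at least 2-fold higher became 9 when it was doubled and 16 with a pseudocount of 1.

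Lists of tissue markers moved in different directions in the same arrays. Of all named genes tested, limma called 0.728% higher and 0.031% lower. In both mutant arrays 36% of all named genes were higher and 37.4% lower. Of 25 yolk sac endoderm markers 23 were measured, each by its brightest probe set. Limma called 18 of these markers higher, and 22 were higher in both mutant arrays, with a median log2 ratio of 2.57. Their summed signal was 28175 in normal embryos, and the mutant arrays gave 149971 and 155895, and none of them was below the pseudocount on any array. Of 13 measured erythroid markers limma called 2 higher, and 13 were higher in both mutant arrays (median 1.54). Their summed signal was 34948 against 71356 and 71701. The globin genes Hbb-y, Hbb-bh1 and Hba-x gave 10049, 14623 and 8321 of the normal sum. A summed signal mostly follows the brightest genes of its list. Of 7 measured trophoblast markers limma called 1 higher, and 4 were higher and 2 lower in both mutant arrays. Their log2 ratios ran from -1.83 to 2.25, and the summed signal was 1906 against 4894 and 4466. The neural, cardiac and somite markers measured (10, 10 and 9) had medians of -0.81, -0.88 and -0.68. Limma called 0 of them, with 4, 5 and 5 lower at an unadjusted limma p under 0.05, where 4.24% of all named genes tested were. The summed signals went from 10200.1 to 4841 and 7656 for neural, from 37246 to 19968 and 27324 for cardiac and from 6903 to 3622 and 4704 for somite markers. Of 9 decidua markers limma called 1 lower, and 2 were higher and 5 lower in both mutant arrays (median -0.22). Their summed signal was 5213 against 3587 and 5743. In pooled whole embryos more cells of a type and more RNA per cell cannot be told apart, and the part of these tissues in the transporter values was not tested.

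Genes that sense amino acids or supply the same pathway gave no calls. Of 22 other amino acid and peptide carriers measured, limma called 0 (0.728% of named genes tested were called higher and 0.031% lower). In both mutant arrays 12 were higher and 6 lower. The median log2 ratio was 0.22, with a range from -1.07 to 1.85. Slc66a1, which exports cationic amino acids from lysosomes, read 280 against 1095 and 1092, a log2 ratio of 1.85 (SE 0.24) just short of the threshold (limma adjusted p = 0.0560). The lysosomal cystine exporter Ctns read 164 against 439 and 329 (1.08, SE 0.31), and Slc16a10, an aromatic amino acid carrier, read 405 against 897 and 820 (1.02, SE 0.24). Those 3 carriers were all higher in both mutant arrays without passing. Of the partner proteins of other carriers 2 of 3 were measured: Bsg gave a log2 ratio of -0.12 and did not pass, and Cltrn, too dim to test, gave 0.29.

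Among 24 amino acid response genes measured, limma called 0, the median log2 ratio was 0.15, and 13 were higher and 6 lower in both mutant arrays, where 36% and 37.4% of all named genes were. Atf4, the transcription factor at the centre of that response, read 4095 against 4533 and 4639 (0.16, SE 0.17). Its targets Asns (0.50, SE 0.22), Trib3 (0.40, SE 0.30) and Ddit3 (-0.02, SE 0.35) did not pass. The largest values in the list were those of Cebpb (231 against 762 and 753, log2 ratio 1.59) and Psph (1053 against 3111 and 2723, 1.44). Over 31 genes of amino acid sensing by mTORC1 the median was 0.03, and over 19 aminoacyl-tRNA synthetases it was 0.05, with 0 calls in both lists. At an unadjusted limma p under 0.05, where 8.01% of all named genes tested were higher and 4.24% lower, none of these lists had a gene lower. The number higher was 6 of 16 tested other carriers, 3 of 22 response genes, 4 of 31 sensing genes and 1 of 19 synthetases.

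**Figure D4:**
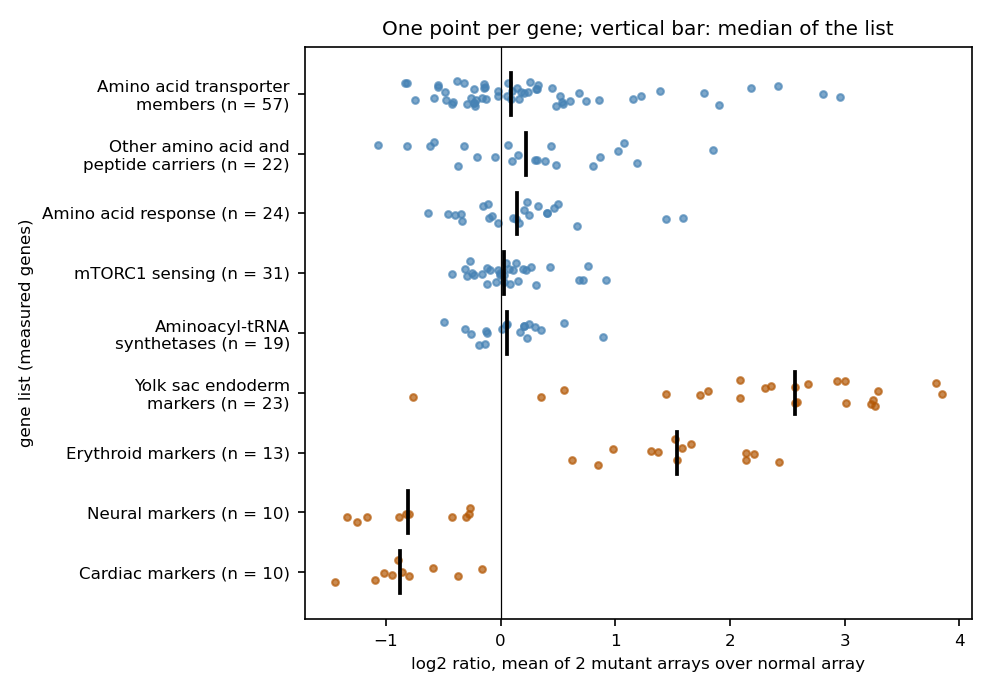
Log2 ratio of the mean of both mutant arrays over the normal array (x axis), 1 point per gene by its brightest probe set, for the transporter genes, 4 lists of related genes and 4 lists of tissue markers, with each list's median as a vertical bar. The transporter points centre near 0 (median 0.09) with a tail up to 2.96, while the yolk sac endoderm points centre on 2.57.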

How the data were processed

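Biotin-labelled cRNA from total RNA was hybridised to Affymetrix arrays, per the labels' protocols. GCOS and MAS5 are the tools listed in the submitters' processing notes. The authors deposited 1 linear intensity per probe set and array, each array having a trimmed mean of 500.0 (2% trimmed at each end). Median signals were 143.6, 130.0 and 139.6. Genes were named from the platform annotation: of 45037 non-control probe sets 34945 had 1 symbol, 932 several and 9160 none listed. Members and gene lists were chosen with earlier results of these data known.

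Limma (version 3.58.1, R 4.3.3) was fitted with a variance trend on signal to log2(signal + 31.92), the pseudocount being the median over arrays of the 20th percentile, for 27022 probe sets at or above the 40th percentile of the mean of the group means. Tests were two-sided with Benjamini-Hochberg adjustment over all 27022 and a threshold of 0.05. The 1 residual degree of freedom comes from the mutant arrays, with 4.52 prior degrees of freedom, so the unreplicated normal pool is taken to vary as much as they do. The number of arrays limits the precision. The p-values rest on the spread between the mutant pools and on that of other probe sets of like signal, and hold no spread between normal pools.

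Named were all members that passed, up to 10 with the highest and 10 with the lowest ratio in the less changed mutant array among genes above a signal of 200 on some array, the 3 brightest genes of each family, and the light chains. Slc1a1, Slc1a2, Slc38a7, Slc38a9 and the other genes named outside this rule, with all those named from other lists, were chosen after their values were seen. RefSeq sequences are of GRCm38.p6. Alternatives were other pseudocounts, filters, scalings and variance settings, the mean of a gene's probe sets, and leaving out each mutant array.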

Additional observations from a re-analysis of the deposited data

How the results depend on the processing

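No member was called lower under any setting tried. The 3 higher calls became 0 with no filter on dim probe sets, 0 without a variance trend and 6 with median centring, and 2 to 3 under the others. No filter and no trend also gave 0 calls over all probe sets. With median centring the calls over all tested probe sets rose from 148 to 263 higher and from 8 to 24 lower. At least 2-fold lower in both arrays was 1 member, and 2 with a pseudocount of 15.96, 0 with 63.84 and 7 with a pseudocount of 1; with either mutant array alone it was 2 to 4. The median log2 ratio over members was 0.07, and 0.10 with a pseudocount of 1, 0.15 with median centring, 0.10 with cyclic loess, 0.092 over genes and 0.20 over the members kept by the filter; with either mutant array alone it was 0.067 to 0.086. Of the named genes, 5 values turned sign: Slc6a2 (0.19), Slc7a11 (0.054) and Slc7a13 (0.23) with the mean of the gene's probe sets, and, with either mutant array alone, Slc6a6 (-0.11 to 0.21) and Slc43a1 (-0.67 to 0.074). The cause was not tested. Leaving out a mutant array left 1 array a group, so no calls could be made. No paired analysis was possible because the single normal array shares no pairing with the mutant arrays.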
